A study of Drosophila melanogaster with 8 samples.

Results

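The 9 genes described here encode proteins that a fly stores or packs into eggs: the larval serum proteins Lsp1alpha, Lsp1beta, Lsp1gamma and Lsp2, the fat body proteins Fbp1 and Fbp2, and the yolk proteins Yp1, Yp2 and Yp3. They were chosen by name, as the rows of the count table that carry these symbols, and all 9 were found among its 22887 features. They were read in total RNA from dissected testes of Drosophila melanogaster 5 days old. There were 4 groups of 2 libraries, each library from its own dissection: w1118, the white-eyed laboratory strain that served as wild type, mutants of Tailor, mutants of Dis3L2, and the Tailor/Dis3L2 double mutant. Tailor adds uridines to the 3' ends of RNAs, and Dis3L2 is an exonuclease that degrades such RNAs from that end. The sources used here do not give the alleles, the strain background of the mutants or the number of flies per dissection.

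Larval serum proteins are hexamerins, storage proteins of the hemocyanin superfamily. The fat body, the insect counterpart of liver and adipose tissue, secretes them into the blood of the feeding larva and takes them back up before metamorphosis, with Fbp1 as the receptor; the steroid hormone ecdysone controls that switch. Yolk proteins, which are related to lipases, are made by the fat body of the adult female and by the follicle cells of the ovary, and the male form of the Doublesex protein represses their genes in male fat body. None of the 9 genes is a textbook testis gene.

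All of the genes were weakly represented. The 9 together had between 225 and 1464 counts per library, of 9781275 to 30059737 in total, so a single gene often rested on fewer than 100 reads. Levels are given as CPM, which divides each library's counts by its library size after TMM scaling. Libraries of different depth can then be set side by side. The scaling factors ran from 0.7951 in Tailor mutant replicate 1 to 1.162 in Dis3L2 mutant replicate 2, so CPM is not a plain share of the total. A count of 0 allows a level of up to 3 counts, which is 0.0962 to 0.312 CPM depending on the library. That limit and the ratio intervals below cover counting error only, because the reads carry no molecular identifiers. All 9 genes passed the filter on low counts, which asks for 0.477 CPM in enough libraries. However, Lsp1alpha, Lsp1beta, Fbp1 and Fbp2 passed only because of the double mutant libraries, so the number of genes past the filter or past the test is not read as support below. Nor is a double mutant level above all other libraries read as support, because the share of all features with that separation was not counted.

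The mutations were visible in the targeted transcripts. Tailor stood at 82.6 to 87.0 CPM in w1118, 19.0 to 20.5 in the Tailor mutant and 21.1 to 22.8 in the double mutant, and Dis3l2 (CG16940 in the table) fell from 115 to 117 CPM in w1118 to 9.99 to 10.6 in the Dis3L2 mutant and 30.7 to 30.8 in the double mutant. Germline markers summed to 3580 to 5480 CPM in the 8 libraries. The Tailor mutant replicates stood apart from each other, with a log-scale correlation of 0.948 against 0.979 to 0.986 in the other groups. Replicate 1 of the Tailor mutant had 50100 CPM of accessory gland markers, against 11700 in replicate 2 and 4560 to 17200 in the other libraries. Results that rest on the Tailor mutant are therefore given for each replicate.

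The 3 Lsp1 genes, which encode the alpha, beta and gamma subunits of larval serum protein 1, had 26 to 220 reads per library in the double mutant and few in w1118 and the Dis3L2 mutant. Lsp1alpha (FBgn0002562, chrX:12490291-12492982, plus strand) had 1 and 1 counts in w1118, 5 and 0 in Tailor mutants, 0 and 0 in Dis3L2 mutants and 104 and 26 in double mutants. Both double mutant libraries, at 3.34 and 2.70 CPM, stood above every other library, of which the highest was Tailor mutant replicate 1 at 0.25 CPM. Against w1118 the ratio of scaled counts was 72.6 (95% interval 19.7 to 606), and edgeR's quasi-likelihood test gave an adjusted p of 0.0205. Against the Dis3L2 mutant, where no read was counted, the level was at least 40.8-fold higher with 3 counts put over that group (adjusted p 0.0194). Against the Tailor mutant the ratio was 28.6 (11.9 to 89.6), with a log2 fold change of 4.65 ± 0.93 (SE) and an adjusted p of 0.0258.

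Lsp1beta (FBgn0002563, chr2L:898500-901316, plus strand) read 0.388 and 0.0802 CPM in w1118, 3.51 and 0.161 in Tailor mutants, 0.266 and 0.171 in Dis3L2 mutants and 6.71 and 8.00 in double mutants. The double mutant again stood above all other libraries, and Tailor mutant replicate 1 alone came near it. The gene rose by 4.99 ± 1.26 on the log2 scale in the double mutant against w1118 (adjusted p 0.0454), from 0.234 ± 0.218 to 7.35 ± 0.912 CPM (SD, n = 2). Its difference from the Dis3L2 mutant, 5.07 ± 1.29, lay just outside the threshold at an adjusted p of 0.0539.

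Lsp1gamma (FBgn0002564, chr3L:66430-68995, plus strand) read 0.388 and 0.963 CPM in w1118, 2.10 and 0.201 in Tailor mutants, 0.466 and 0.300 in Dis3L2 mutants and 7.06 and 5.92 in double mutants. As for Lsp1beta, the double mutant was on top with no overlap with any other group, and Tailor mutant replicate 1 came next. The log2 difference between the double mutant and w1118 was 3.24 ± 0.89 (adjusted p 0.0572), just short of the threshold. Against the Dis3L2 mutant the gene was higher by 4.11 ± 0.97 (adjusted p 0.0426), and against the Tailor mutant the difference was 2.53 ± 0.86 (adjusted p 0.0891).

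Lsp2 (FBgn0002565, chr3L:12129393-12131869, plus strand) encodes another hexamerin, which adult flies also make. Per kilobase of exon it was the most abundant of the larval serum protein genes in w1118. It read 1.60 and 1.44 CPM there, 7.76 and 1.41 in Tailor mutants, 2.06 and 2.40 in Dis3L2 mutants and 9.79 and 7.58 in double mutants. The double mutant did not overlap with w1118 or the Dis3L2 mutant, but Tailor mutant replicate 1 lay between its replicates. The log2 difference from w1118 was 2.52 ± 0.69 with an adjusted p of 0.0560, and that from the Dis3L2 mutant was 1.96 ± 0.67 (adjusted p 0.115). An antisense gene, CR11538, lies over Lsp2 and held 16 to 113 counts per library; the sources used here do not state how the counting treated strand, so reads of the pair cannot be told apart.

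Fbp1 (FBgn0000639, chr3L:14094589-14098053, minus strand), the receptor through which fat body cells take up larval serum protein, showed the widest range of the 9 genes per kilobase of exon. It had 0 and 3 counts in w1118, 208 and 2 in Tailor mutants, 1 and 2 in Dis3L2 mutants and 336 and 173 in double mutants. In CPM the double mutant stood at 10.8 and 18.0 and Tailor mutant replicate 1 at 10.4, while each of the other 5 libraries was at 0.120 or less. The ratio of the double mutant to w1118 was 190 (95% interval 64.5 to 922), and the gene passed the test with an adjusted p of 0.0489. Against the Dis3L2 mutant the ratio was 160 (54.3 to 777), with an adjusted p of 0.0618.

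Fbp2 (FBgn0000640, chr2L:9426784-9427917, plus strand), a fat body protein related to alcohol dehydrogenase, had 2 and 2 counts in w1118, 23 and 5 in Tailor mutants, 0 and 3 in Dis3L2 mutants and 83 and 16 in double mutants. At 2.66 and 1.66 CPM the double mutant stood above all other libraries, with Tailor mutant replicate 1 next at 1.15 CPM. The gene rose by 4.56 ± 1.01 on the log2 scale against w1118 (adjusted p 0.0311). It was also higher than in the Dis3L2 mutant, with a ratio of 31.1 (10.3 to 153) and an adjusted p of 0.0351. The gene CG42847 overlaps it and held 1516 to 6651 counts per library, so reads from their shared stretch cannot be assigned to 1 of the pair with certainty.

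**Figure D1:**
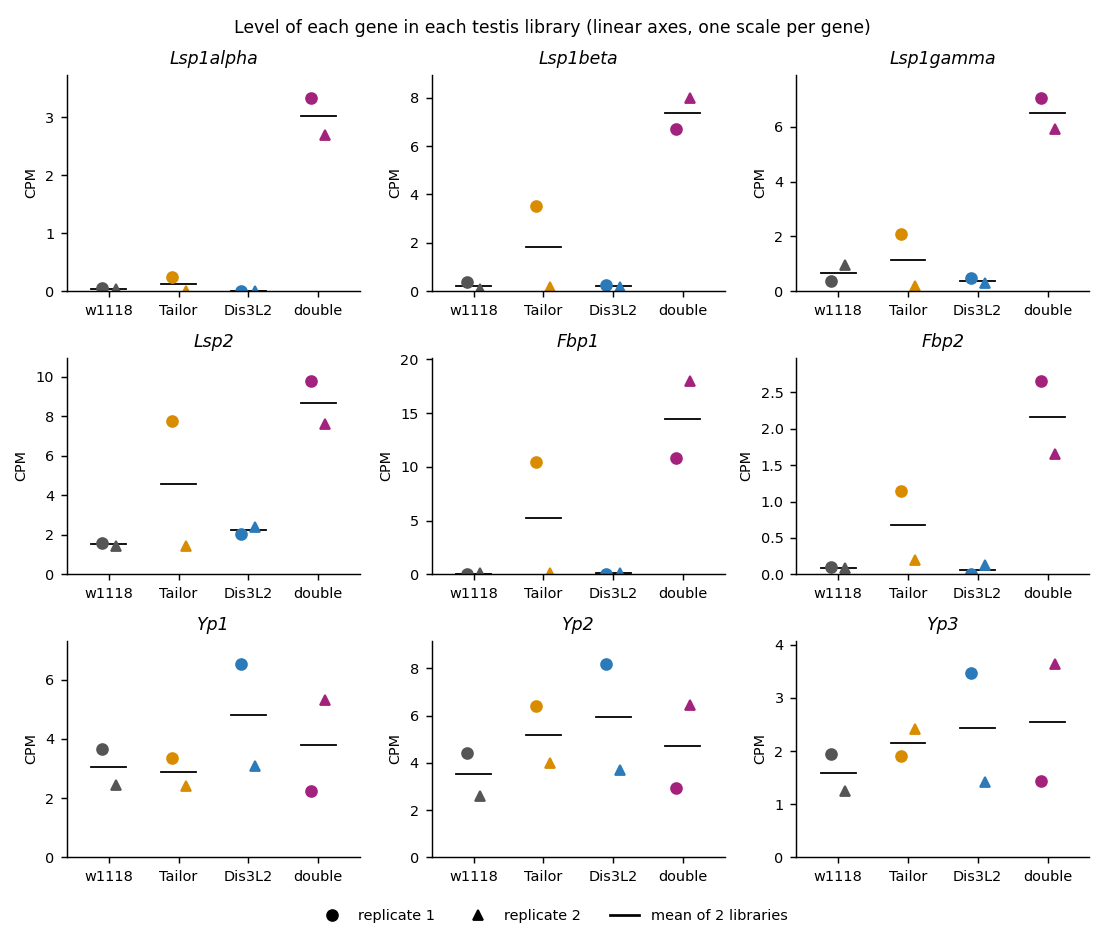
Level of each of the 9 genes in each of the 8 libraries, in CPM on linear axes with a scale of its own per gene; symbols mark the replicates and lines the mean of the 2 libraries of a group. The 6 larval serum and fat body genes are high in both double mutant libraries, and Fbp1 and Lsp2 also in Tailor mutant replicate 1 (10.4 and 7.76 CPM), whereas the yolk protein genes have overlapping groups.

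Across the table, 11.6% of the 14246 features tested were called between the double mutant and w1118 at an adjusted p of 0.05 or less, and 6.66% were higher in the double mutant. Of the 9 genes 4 were called, all higher: Lsp1alpha, Lsp1beta, Fbp1 and Fbp2, the same 4 that passed the filter only through the double mutant. At an unadjusted p under 0.05 the count was 6, the larval serum and fat body genes, beside 30.4% of all features. The median log2 change of all features was -0.057. The calls were sensitive to single libraries: none of the 9 genes was called without either w1118 replicate or without either double mutant replicate, 2 (Lsp1alpha and Fbp2) were called without either Dis3L2 replicate, and 6 were called without either Tailor replicate. With DESeq2, with no filter, or with only these 2 groups in the fit, 6 were called, and with a stricter filter 1, Lsp1beta. The share of all features called moved as well, from 1.32% without w1118 replicate 1 to 27.6% with only the 2 groups.

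Between the double mutant and the Dis3L2 mutant 9.05% of features were called and 4.77% were higher in the double mutant. Lsp1alpha, Lsp1gamma and Fbp2 were the 3 of the 9 genes called, all higher, and 6 of the 9 had an unadjusted p under 0.05, beside 27.0% of features. None of the 9 was called without either Dis3L2, without either double mutant or without w1118 replicate 2, and 1 was without w1118 replicate 1. Between the double mutant and the Tailor mutant 14.7% of features were called and 8.13% were higher in the double mutant, and Lsp1alpha was the 1 gene of the 9 to pass. This call ended when only those 2 groups were fitted (adjusted p 0.0897), a fit that called 0.146% of all features. It also ended without either w1118 or either double mutant replicate. Over all 4 groups at once, 21.8% of features and 5 of the 9 genes were called: Lsp1alpha (adjusted p 0.0114), Fbp2 (0.0267), Lsp1gamma (0.0370), Lsp1beta (0.0392) and Fbp1 (0.0421). Leaving out any w1118, Dis3L2 or double mutant library left 0 or 1 of the 9 called in that test. Lsp2 had an adjusted p of 0.0819 and the yolk protein genes 0.599 to 0.769.

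**Figure D2:**
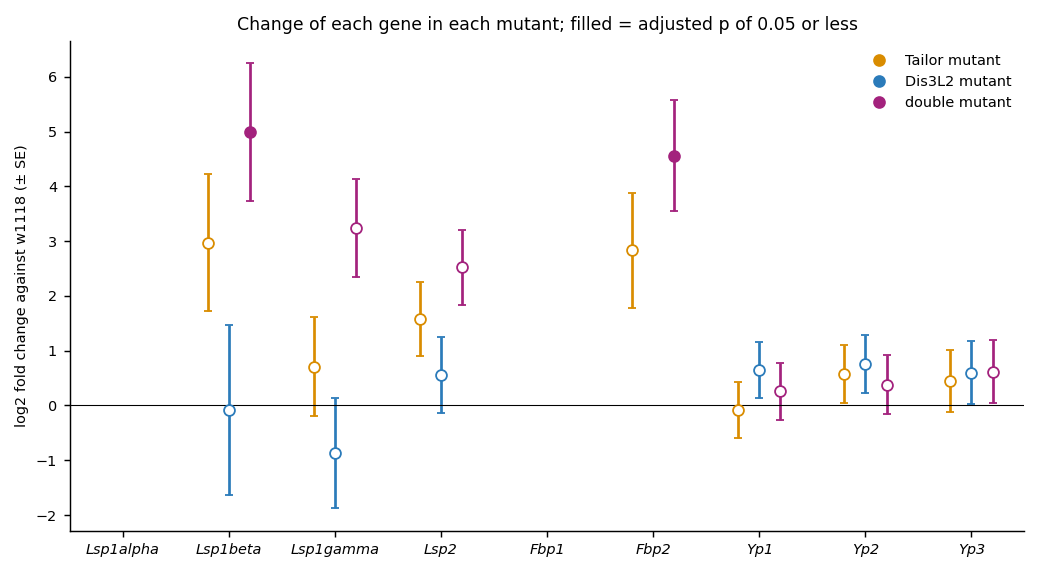
Log2 fold change of each gene in each mutant against w1118, as fitted by edgeR, with bars of ± SE and filled symbols for an adjusted p of 0.05 or less. Comparisons with 3 or fewer counts in a group, which are all those of Lsp1alpha and Fbp1 and that of Fbp2 in the Dis3L2 mutant, are not drawn because their fitted change depends on the prior count; Lsp1beta and Fbp2 lie at 4.99 and 4.56 in the double mutant, and the 3 yolk protein genes lie between -0.08 and 0.75 in all 3 comparisons.

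In the Tailor mutant against w1118, 2.00% of features were called and none of the 9 genes was, although 3 of them (Fbp1, Fbp2 and Lsp1beta) had an unadjusted p under 0.05, beside 14.7% of features. The 2 Tailor mutant libraries differed widely for 5 of the genes. Fbp1 was 130-fold higher in replicate 1 than in replicate 2 (95% counting interval 35.4 to 1080), Lsp1beta 21.8-fold (8.15 to 82.3), Lsp1gamma 10.5-fold (4.15 to 33.9), Fbp2 5.73-fold (2.13 to 19.3) and Lsp2 5.52-fold (3.81 to 8.21). Replicate 2 lay within or near the range of w1118 in all 5. The double mutant replicates were nearer to each other, from 0.6-fold for Fbp1 (0.498 to 0.725) to 1.6-fold for Fbp2 (0.931 to 2.93).

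With Tailor mutant replicate 2 left out, so that the group is 1 library assumed to vary like the others, 4 of the 9 genes were called higher than w1118, beside 7.59% of all features: Fbp1 (adjusted p 0.00165), Lsp2 (0.00381), Lsp1beta (0.0112) and Fbp2 (0.0417). With replicate 1 left out none was, beside 2.48% of features. In that fit 6 of the 9 were higher in the double mutant than in the Tailor mutant, beside 25.6% of features called. Whether the RNA of replicate 1 or of replicate 2 better represents the genotype cannot be told from 2 libraries.

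The Dis3L2 mutant gave no call among the 9 genes against w1118, beside 9.22% of all features, and no unadjusted p under 0.05 either, a level that 24.6% of features reached. The log2 difference of Lsp2 was 0.56 ± 0.69 (adjusted p 0.690) and that of Lsp1gamma -0.87 ± 1.01 (adjusted p 0.667). Lsp1alpha, Fbp1 and Fbp2 had 0 to 3 counts in each of the 4 libraries compared, so a difference was not detectable at this depth. Between the single mutants 13.0% of features were called and none of the 9 genes, with 3 at an unadjusted p under 0.05, beside 28.2% of features. The interaction, which asks whether both mutations together act other than additively on the log2 scale, was called for 4.08% of features and for none of the 9 genes, with 2 at an unadjusted p under 0.05, beside 22.3% of features, and adjusted p values of 0.168 for Lsp1alpha and 0.189 for Lsp1gamma. Without Tailor mutant replicate 1 the interaction was called for 5 of the 9, beside 12.8% of features. DESeq2, with all 8 libraries, called it for 1 of the 9, beside 7.69% of features.

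Summed over Lsp1alpha, Lsp1beta, Lsp1gamma, Lsp2 and Fbp1, the level was 2.42 and 2.65 CPM in w1118, 24.0 and 1.85 in Tailor mutants, 2.86 and 2.95 in Dis3L2 mutants and 37.7 and 42.2 in double mutants. Thus 5 libraries lay within a narrow band and 3 lay far above it. The mix of the genes in those 3 libraries is given with intervals that cover counting error only and not the spread between libraries. Fbp1 gave 43.3% of these reads in Tailor mutant replicate 1 (exact binomial 95% interval 38.8 to 47.9%), 28.6% (26.0 to 31.3%) in double mutant replicate 1 and 42.6% (37.7 to 47.6%) in double mutant replicate 2. Lsp1alpha gave 4.27% (1.40 to 9.69%) of the Lsp1 reads in Tailor mutant replicate 1, against 19.5% (16.2 to 23.1%) and 16.2% (10.9 to 22.9%) in the double mutant. The Fbp1 shares of the 2 double mutant replicates lay as far apart as those of different genotypes. The Lsp1 genes are close relatives, as are the yolk protein genes, and how reads that match several positions were counted is unknown, so the split of reads within each family is uncertain.

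**Figure D3:**
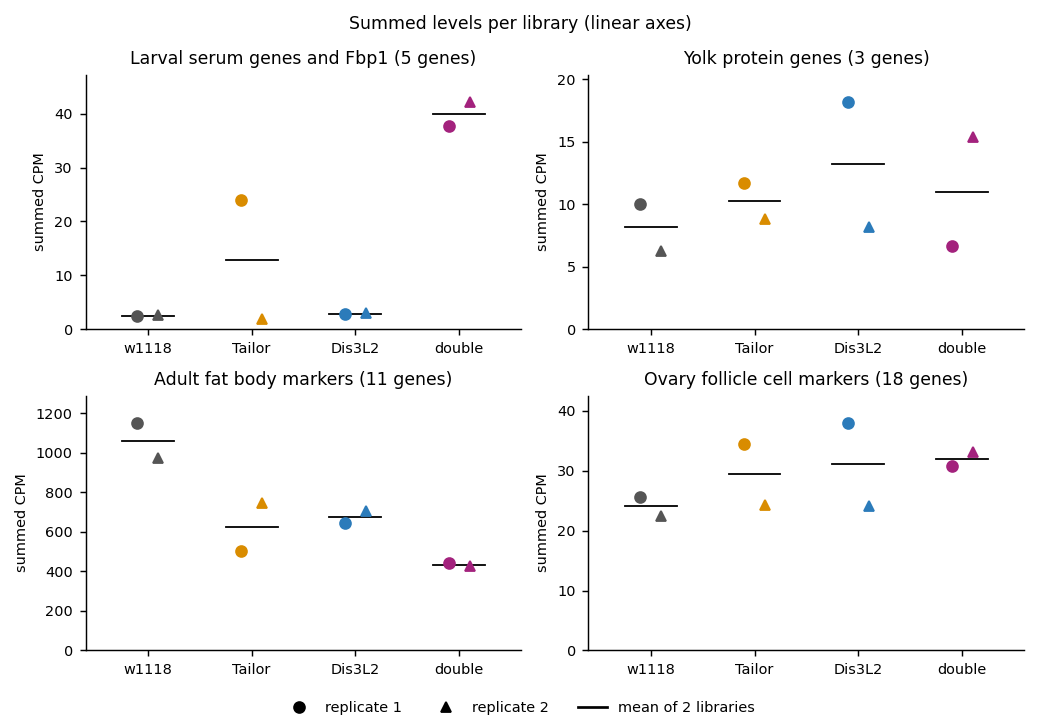
Summed level of the 4 larval serum protein genes and Fbp1, and of the 3 yolk protein genes, in each library in CPM on linear axes, beside the summed levels of fat body and ovary follicle cell markers; lines are the means of the 2 libraries. The first sum is 24.0 CPM or more in Tailor mutant replicate 1 and both double mutant replicates and 2.95 CPM or less in the others, while fat body markers are lowest in the double mutant.

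The yolk protein genes behaved differently from the larval serum protein genes. Yp1 (FBgn0004045, chrX:10053811-10055498, plus strand) read 3.64 and 2.45 CPM in w1118, 3.36 and 2.41 in Tailor mutants, 6.53 and 3.08 in Dis3L2 mutants and 2.25 and 5.30 in double mutants. Yp2 (FBgn0005391, chrX:10050951-10052636, minus strand), which is 1174 bases from Yp1 and is read in the opposite direction, read 4.41 and 2.61 CPM in w1118, 6.41 and 3.98 in Tailor mutants, 8.19 and 3.68 in Dis3L2 mutants and 2.95 and 6.44 in double mutants. Yp3 (FBgn0004047, chrX:13759546-13761547, plus strand), which lies elsewhere on the X, read 1.94 and 1.24, 1.90 and 2.41, 3.46 and 1.41, and 1.44 and 3.64 CPM in the same order. In all 3 genes the libraries of the 4 groups overlapped, and Dis3L2 mutant replicate 1 and double mutant replicate 2 were high.

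No yolk protein gene passed the test in any comparison. Against w1118 in the double mutant the log2 differences were 0.26 ± 0.52 for Yp1 (adjusted p 0.762), 0.38 ± 0.54 for Yp2 (0.662) and 0.62 ± 0.58 for Yp3 (0.505). In the Dis3L2 mutant they were 0.65 ± 0.51, 0.75 ± 0.53 and 0.60 ± 0.58, and in the Tailor mutant -0.08 ± 0.51, 0.57 ± 0.53 and 0.45 ± 0.57. Missing the threshold does not show that these levels were equal. The libraries that read high were the shallowest: yolk protein counts varied 1.84-fold over the 8 libraries (148 to 273) while total counts varied 3.07-fold and yolk protein CPM 2.89-fold (6.30 to 18.2). The part of depth in the yolk protein levels was not tested.

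Within each library the yolk protein genes kept a fixed order per kilobase of exon: Yp2 was above Yp1 and Yp1 above Yp3 in all 8. Yp2 made up 42.5 to 56.1% of their summed level per length, Yp1 28.5 to 40.0% and Yp3 14.4 to 24.6%. Each is a short gene, with 1611, 1618 and 1868 bases of exon. An antisense gene annotated over Yp1, CR45601, had a single read in 1 library and none in the others.

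**Figure D4:**
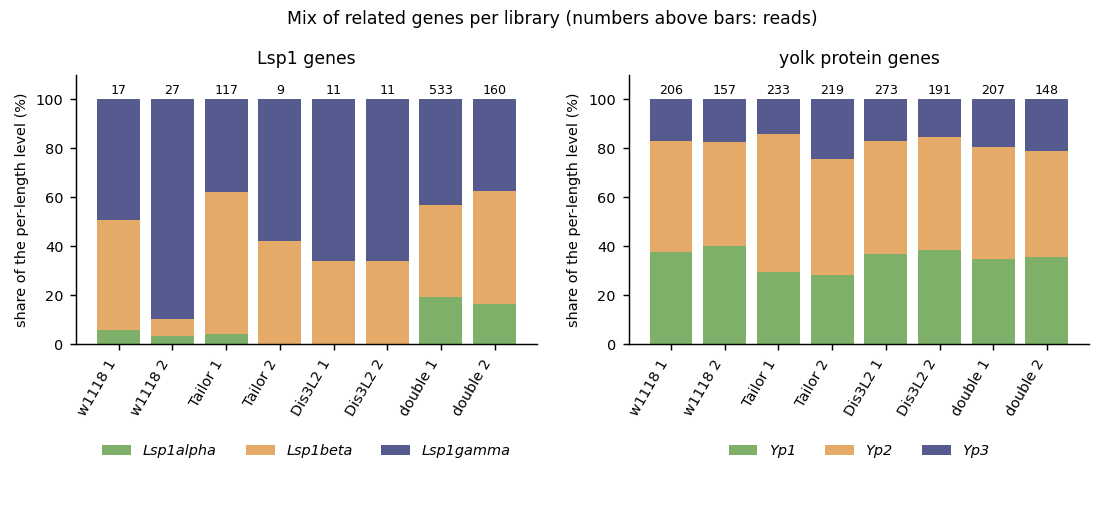
Share of each gene in its family's summed level per kilobase of exon, by library, for the Lsp1 genes and for the yolk protein genes. The yolk protein genes keep the order Yp2, Yp1, Yp3 in all 8 libraries and the numbers above the bars are reads. The Lsp1 shares rest on 9 to 27 reads in w1118, the Dis3L2 mutant and Tailor mutant replicate 2, and on 117 to 533 in the other 3 libraries.

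The order of the 9 genes by mean level per kilobase of exon was the same in w1118 and the Dis3L2 mutant and differed in the Tailor and double mutants. In the Tailor mutant the mean joins replicates that lay far apart, such as Fbp1 at 3.01 and 0.0232 CPM per kb. In w1118 the yolk protein genes led, with Yp2 at 2.17 CPM per kb, Yp1 at 1.89 and Yp3 at 0.852, followed by Lsp2 at 0.614, Lsp1gamma at 0.27, Lsp1beta at 0.0851, Fbp2 at 0.0825, Fbp1 at 0.0174 and Lsp1alpha at 0.0169. In that order the libraries overlapped for Yp2 and Yp1, for Lsp1beta and Fbp2, and for Fbp1 and Lsp1alpha. The Dis3L2 mutant had the same order, from Yp2 at 3.67 to Lsp1alpha at 0, and there the libraries did not overlap between Yp1 and Yp3, between Lsp2 and Lsp1gamma, or between Lsp1gamma and Lsp1beta. Fbp1 and Lsp1alpha, with 3 and 0 counts over the group, cannot be ranked at this depth. In the double mutant Fbp1 led at 4.15 CPM per kb, followed by Lsp2 at 3.51, Yp2 at 2.90, Lsp1beta at 2.68, Lsp1gamma at 2.60, Yp1 at 2.34, Fbp2 at 2.01, Yp3 at 1.36 and Lsp1alpha at 1.15. Every pair of neighbours in that last order overlapped, as did every pair in the Tailor mutant, where Yp2 led at 3.21 and Lsp1alpha was last at 0.0477.

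Other genes of the fat body were read beside the storage proteins. Of 20 adult fat body genes listed, 18 were tested. In the double mutant 1 was higher and 2 were lower than in w1118, with a median log2 change of -0.40 and 11.6% of all features called. The Tailor mutant had 2 higher and 1 lower, beside 2.00% of all features called. The Dis3L2 mutant had 0 higher and 1 lower, beside 9.22%. Transferrin 1 (Tsf1), an iron carrier of the blood, read 669 and 574 CPM in w1118, 158 and 246 in Tailor mutants, 345 and 425 in Dis3L2 mutants and 202 and 192 in double mutants. It fell by 1.66 ± 0.23 on the log2 scale in the double mutant (adjusted p 0.00682). The log2 difference from w1118 was -1.62 ± 0.23 in the Tailor mutant (adjusted p 0.0182) and -0.69 ± 0.22 in the Dis3L2 mutant (adjusted p 0.102, not called). Apolipophorin (apolpp), the main lipid carrier, fell by 1.57 ± 0.23 in the double mutant (adjusted p 0.00819) and by 1.58 ± 0.23 in the Dis3L2 mutant (adjusted p 0.00781). The lipase gene brummer (bmm) rose by 1.08 ± 0.12 in the double mutant (adjusted p 0.00411) and by 0.95 ± 0.12 in the Tailor mutant (adjusted p 0.0132). It read 29.2 and 27.1 CPM in w1118 and 56.0 and 52.4 in Tailor mutants. In the double mutant the calls held in 12 of 15 alternatives for Tsf1, 13 for apolpp and 14 for bmm. They ended, among others, without double mutant replicate 2 for Tsf1 and without w1118 replicate 1 for apolpp, and for bmm only without w1118 replicate 2. In the Tailor mutant the Tsf1 call held in 9 of 15, ending, among others, with only the groups compared (adjusted p 0.164). The bmm call there held in 12 of 15, ending, among others, without w1118 replicate 2. The apolpp call in the Dis3L2 mutant held in 12 of 15, ending, among others, without Dis3L2 mutant replicate 1.

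The 11 fat body marker genes found, of 12 listed, summed to 1150 and 971 CPM in w1118, 503 and 744 in Tailor mutants, 644 and 704 in Dis3L2 mutants and 441 and 426 in double mutants. The sum was thus lowest in the group with the highest larval serum protein levels. Tsf1, FASN1 and apolpp carry most of it, with 669, 218 and 204 CPM in w1118 replicate 1. In the Tailor mutant the median log2 change of the 10 markers tested was 0.02, with 1 called higher and 1 lower, beside 2.00% of all features called. In bulk RNA, fewer cells of a type and less RNA per cell cannot be told apart. The part of fat body content in the larval serum protein levels was not tested. A marker of male fat body, the odorant binding protein gene Obp99b, was singled out after its values were seen: it read 0.533 and 0.562 CPM in w1118, 10.5 and 0.643 in Tailor mutants, 0 and 0.214 in Dis3L2 mutants and 4.24 and 3.95 in double mutants. Its high libraries were the 3 in which Fbp1 was high, but its log2 difference between the double mutant and w1118, 2.89 ± 1.17, was not called (adjusted p 0.148). Takeout (to), another male fat body gene of the list, read 0.097 and 0.923 CPM in w1118, 0.0501 and 0.0402 in Tailor mutants, 0.133 and 2.18 in Dis3L2 mutants and 0.0963 and 0 in double mutants, and was not called either (log2 difference between the double mutant and w1118 -2.81 ± 1.64, adjusted p 0.284). Over the 10 markers tested, 2 were called lower and 0 higher in the double mutant, beside 11.6% of all features called. Their median log2 change was -0.61, so Obp99b does not speak for the list.

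Follicle cell markers, 18 genes of the eggshell, were detected at low level in every library: 25.7 and 22.5 CPM in w1118, 34.5 and 24.3 in Tailor mutants, 38 and 24.2 in Dis3L2 mutants and 30.8 and 33.1 in double mutants. In each of the 4 groups the replicate with more follicle cell marker RNA also had the higher yolk protein sum. Whether these reads and the yolk protein reads share a source was not tested. Blood cell markers summed to 227 to 367 CPM, cyst and hub cell markers to 147 to 223, and muscle markers to 940 to 1840. Midgut markers varied from 53.3 to 1050 CPM and oenocyte markers from 10.7 to 120, and both were lower in the double mutant than in w1118.

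Among 15 genes of larval and pupal secreted proteins, Eig71Eb alone had enough reads to be tested. This ecdysone-induced gene read 0.873 and 1.52 CPM in w1118, 4.91 and 3.25 in Tailor mutants, 1.20 and 1.11 in Dis3L2 mutants and 2.86 and 4.36 in double mutants. It rose by 1.55 ± 0.40 on the log2 scale in the double mutant (adjusted p 0.0484). That call held in 7 of 15 alternatives and ended, among others, without either double mutant or either w1118 replicate. The salivary glue genes listed, Sgs1, Sgs3, Sgs4, Sgs5, Sgs7 and Sgs8, had 0 to 2 counts per library and the larval cuticle genes Lcp1 to Lcp4 had 0 to 5. Whether larval or pupal RNA took part in the larval serum protein levels was not tested.

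Of 15 tested genes that respond to or make ecdysone, 1 was higher in the Tailor mutant and 1 in the double mutant, with medians of 0.17 and -0.03 on the log2 scale, and none in the Dis3L2 mutant. Over all 14246 features, 174 were called higher in the Tailor mutant, 949 (6.66%) in the double mutant and 669 in the Dis3L2 mutant. The nuclear receptor gene Hr3 rose by 2.98 ± 0.52 in the Tailor mutant (adjusted p 0.0361) from 0.145 and 0.120 CPM to 0.952 and 1.21, and shade (shd), whose enzyme makes the active hormone, rose by 1.32 ± 0.23 in the double mutant (adjusted p 0.0146). The Hr3 call held in 3 of 14 alternatives, with an adjusted p of up to 0.366, and the shd call in 12 of 15, ending without either w1118 replicate and without double mutant replicate 1 (adjusted p up to 0.118). Of 12 insulin, sugar and storage signalling genes none was called in any mutant against w1118. Against the Tailor mutant, 3 were called lower in the double mutant and 1 in the Dis3L2 mutant, beside 14.7% and 13.0% of all features called.

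Of 12 tested genes of sex determination and yolk protein control, fruitless (fru) alone was called against w1118. It was higher by 0.60 ± 0.15 in the double mutant (adjusted p 0.0456), where 11.6% of all features were called. The fru call held in 8 of 15 alternatives and ended, among others, without w1118 replicate 2. The doublesex gene dsx itself, at 17.6 and 16.6 CPM in w1118 and 9.47 and 12.2 in the double mutant, was not called (log2 difference -0.67 ± 0.36, adjusted p 0.250). Among 6 receptor genes, the yolk protein receptor gene yolkless (yl) rose by 1.01 ± 0.26 in the double mutant (adjusted p 0.0497) and the lipophorin receptor gene LpR1 by 0.89 ± 0.22 in the Dis3L2 mutant (adjusted p 0.0461). Those comparisons called 11.6% and 9.22% of all features. The yl and LpR1 calls each held in 8 of 15 alternatives and ended, among others, without either w1118 replicate. The prophenoloxidases are blood enzymes of the same superfamily as the hexamerins, and none of the 3 was called. PPO1 read 38.1 and 39.3 CPM in w1118, 4.21 and 38.2 in Tailor mutants, 10.7 and 16.8 in Dis3L2 mutants and 38.9 and 23.5 in double mutants, so Tailor mutant replicate 1, high in Fbp1, was the lowest for PPO1.

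The features whose log2 levels most resembled the summed level of the larval serum proteins and Fbp1 over the 8 libraries were CG30334 (Pearson's r 0.987), CR45994 (0.985), glob2 (0.98), Adgf-B (0.977) and CR44590 (0.975). For glob2, a globin gene, the levels were 80.6 and 82.6 CPM in w1118, 112 and 82.5 in Tailor mutants, 78.2 and 83.2 in Dis3L2 mutants and 113 and 124 in double mutants. It shares with the larval serum proteins the high values in Tailor mutant replicate 1 and the double mutant, on a much narrower scale. The yolk protein sum was most like CG30369 (0.944), Rpt6 (0.927), CG8516 (0.927), CG2025 (0.92) and Vm26Aa (0.896), the last a vitelline membrane gene of follicle cells at 0.353 to 1.66 CPM. These correlations are descriptions: the points share library, depth and scaling, and the features were the best of all tested.

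**Figure D5:**
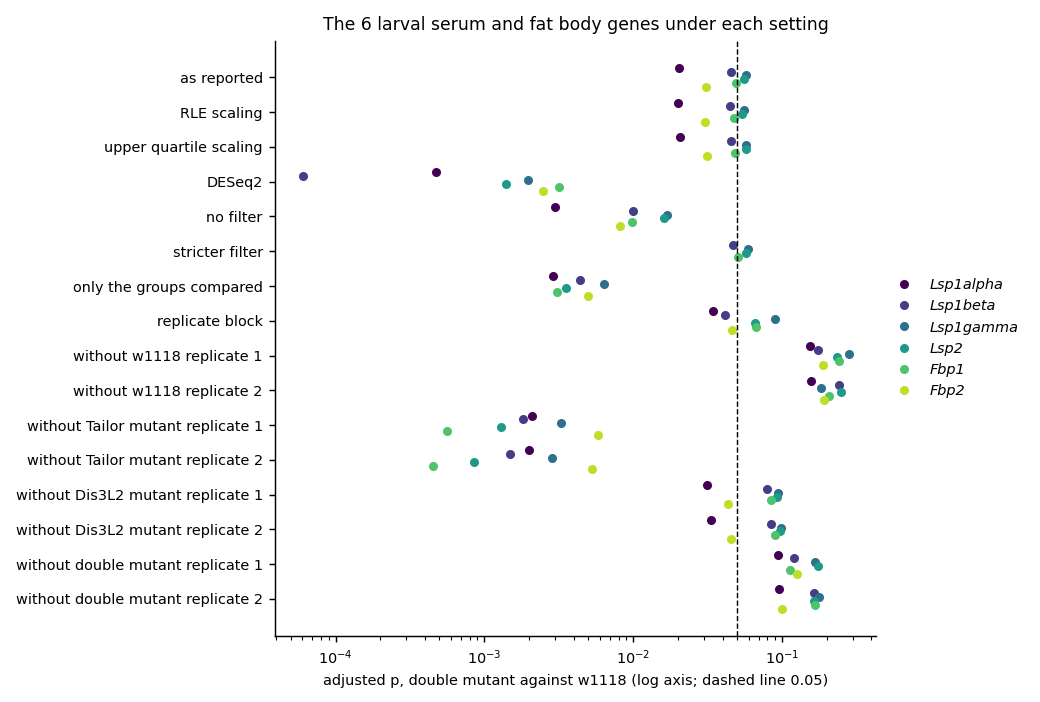
Adjusted p of the 6 larval serum and fat body genes in the double mutant against w1118 under each setting of the analysis, on a log axis, with the threshold of 0.05 marked. Leaving out either Tailor mutant replicate puts all 6 below the threshold, and leaving out either w1118 or either double mutant replicate puts all 6 above it.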

How the data were processed

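Total RNA of 8 fly testis libraries was sequenced. Per the labels' protocols, 650 ng of RNA entered a TruSeq total RNA preparation with 8 amplification cycles in place of 15, and paired reads of 50 bases came from 2 flow cells. Per the submitters' processing notes, Trimmomatic 0.36, HISAT2 and dm6 were used. How reads were counted (tool, annotation, strand, multiple hits) was not given in the sources used here. The values are raw counts of reads per gene and library, as deposited. The labels do not say which library ran on which flow cell, so that batch could not be examined.

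Library sizes were scaled by TMM in edgeR 4.0.16 (R 4.3.3), filterByExpr was run at a minimum count of 10, and 1 quasi-likelihood model with genotype group as its single factor was fitted to the 8 libraries together. P-values were adjusted by Benjamini-Hochberg over all 14246 features that passed the filter, and 0.05 or less was a call. The standard error is the absolute log2 fold change over the square root of F. Groups have n = 2, from separate dissections. For genes with 1 to 3 counts in a group, a ratio of scaled counts replaces the fitted change, with a conditional binomial 95% interval (exact). Positions and exon lengths come from the Ensembl annotation of BDGP6, which has the coordinates of dm6. Likeness is Pearson's r of log2 CPM with a prior count of 2.

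The rule for named genes takes all 9 members and up to 3 members of each gene list with the lowest p in a comparison. The lists were adult fat body, insulin and sugar signalling, ecdysone, sex determination, larval and pupal secreted proteins, prophenoloxidases, relatives of Fbp2 (1 tested, Adh, not called), uptake receptors, and lipases. Of 8 tested lipase genes 1, CG6295, was called lower than in w1118 in the Dis3L2 and double mutants, each call holding in 8 of 15 alternatives. Those comparisons called 9.22% and 11.6% of all features. CG6295 had 59 and 1053 counts in w1118, 0 and 0 in Tailor mutants, 0 and 0 in Dis3L2 mutants and 0 and 1 in double mutants. In the Tailor mutant it was not called (adjusted p 0.104). Members and lists were chosen with earlier results of these data known. Alternatives were RLE and upper quartile scaling, DESeq2 1.42.0, no filter, at least 50 counts in 2 libraries, only the groups compared, a replicate block and leaving out each library. No sequences are printed, because none were used here.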

Additional observations from a re-analysis of the deposited data

Results flagged for a closer look

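For 2 genes of the lists the test of the interaction itself was called, so in the fit of all 8 libraries the effect of losing Tailor differed with the state of Dis3L2. Apoltp, a gene of the adult fat body list, had an interaction of -1.63 ± 0.22 on the log2 scale (adjusted p 0.0139). It read 15.7 and 15.5 CPM in w1118, 28.9 and 35 in Tailor mutants, 17.4 and 18.3 in Dis3L2 mutants and 11.6 and 11.9 in double mutants. Hr3, a nuclear receptor of the ecdysone response, had an interaction of -4.2 ± 0.74 (adjusted p 0.0312), on levels of at most 1.21 CPM. The calls held in 8 of 14 alternatives for Apoltp and in 5 of 13 for Hr3, and both ended, among others, without either w1118 replicate. Over the alternatives the interaction ran from -1.74 to -1.47 for Apoltp and from -4.59 to -3.77 for Hr3. Neither is one of the 9 genes.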

How the results depend on the processing

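Depth and 2 libraries a group limit these results: most of the genes had under 100 reads in most libraries. Of 908 values of the 9 genes recomputed under the alternatives, 773 kept direction and side of the threshold, 46 lost a call, 50 gained one and 39 changed sign, none of the 39 called; the cause was not tested. The 2 other scalings changed no call. With the stricter filter, which tests fewer of the 9 genes, the calls were 1 for the double mutant against w1118, 0 against the Tailor mutant, 1 against the Dis3L2 mutant and 3 over all 4 groups. The shares of all features called were 12.6%, 17.4%, 9.85% and 23.7% in the same order. DESeq2 called 6 for the double mutant against w1118, 2 against the Tailor mutant, 6 against the Dis3L2 mutant, 2 between the single mutants and 1 interaction, while the share of all features called rose to 15.3%, 18.6%, 12.7%, 15.2% and 7.69%. With no filter these were 6, 2, 5, 1 and 0, beside 9.95%, 11.7%, 7.87%, 9.82% and 3.92% of all features. With only the groups compared in the fit, the double mutant gave 6 against w1118, 0 against the Tailor mutant and 6 against the Dis3L2 mutant. Those fits called 27.6%, 0.146% and 16.1% of all features. The replicate numbers did not pair the samples, since the correlations of same-numbered deviations ran from -0.303 to 0.3. With the replicate block 3 were called for the double mutant against w1118, 1 against the Tailor mutant, 1 against the Dis3L2 mutant and 3 over all groups. The shares of all features called were 6.96%, 7.91%, 4.89% and 13.3%, and Lsp1beta in the Dis3L2 mutant turned to 0.11.

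With 1 library left out at a time, the members called ranged from 0 to 4 for the Tailor mutant against w1118, 0 to 6 for the double mutant against w1118, against the Tailor mutant and against the Dis3L2 mutant, 0 to 6 between the single mutants, 0 to 5 for the interaction and 0 to 6 over all groups; the Dis3L2 mutant against w1118 had none throughout. Without Tailor mutant replicate 1, 6 were called between the double and the Tailor mutant (25.6% of all features), and without Tailor mutant replicate 2, 6 between the single mutants (17.2%). Over all features the Tailor mutant calls ranged from 45 without w1118 replicate 2 to 1113 without Tailor mutant replicate 2, and were 506 with DESeq2 and 5 with only the groups compared.

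Log2 fold changes whose sign depended on 1 library, none of them called after the turn, are given by their lowest and highest value. Those of Lsp1alpha, Fbp1 and Fbp2 rest on 3 or fewer counts in a group, so they depend on the prior count and estimate no fold. The same holds for Lsp1beta against w1118 without w1118 replicate 1, which leaves 2 counts in w1118. In the Tailor mutant against w1118 these ranges were Lsp1alpha -3.09 to 2.36, Lsp1beta -0.45 to 4.4, Lsp1gamma -1.74 to 1.61, Lsp2 -0.1 to 2.35 and Yp1 -0.35 to 0.25. In the Dis3L2 mutant against w1118 they were Lsp1beta -0.86 to 1.35, Fbp1 -0.58 to 3.79, Fbp2 -3.97 to 0.51 and Yp3 -0.18 to 1.15. For the double mutant they were Yp1 -0.42 to 0.8, Yp2 -0.23 to 0.88 and Yp3 -0.12 to 1.19 against w1118. Against the Tailor mutant the double mutant gave Yp1 -0.35 to 0.88, Yp2 -0.8 to 0.31 and Yp3 -0.57 to 0.75. Against the Dis3L2 mutant it gave Yp1 -1.08 to 0.29, Yp2 -0.99 to 0.36 and Yp3 -0.73 to 0.83. Between the single mutants the ranges were Lsp1beta -4.02 to 0.36, Lsp1gamma -2.49 to 0.84, Lsp2 -1.79 to 0.65, Yp2 -0.51 to 0.7 and Yp3 -0.63 to 0.71. For the interaction they were Lsp2 -0.36 to 2.09, Fbp1 -2.31 to 7.15, Yp1 -1.01 to 0.36 and Yp3 -1.18 to 0.38.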
